A study of Mus musculus with 24 samples.

Results

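The 37 genes described here drive or mark the cell division cycle: G1 cyclins and kinases, the factors that license and carry out DNA replication, the kinases and cyclins of mitotic entry, the chromosome segregation and spindle checkpoint genes, and the CDK inhibitors Cdkn1a and Cdkn1b. They were taken by name from the 22911 genes that could be named on the array, with earlier results of these data known. All 37 had a probe, and all 37 were among the 14300 genes tested. The question was whether interferon touches the cycle of ID8 cells, a mouse ovarian cancer cell line, within 3 h.

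Cyclins switch on cyclin-dependent kinases in turn. Cyclin D with Cdk4 and cyclin E with Cdk2 release the E2F factors in G1, E2F targets such as the Mcm helicase genes and Rrm2 are made for S phase, and the cyclin A and B genes, Plk1, the Aurora kinases and the checkpoint genes follow in G2 and mitosis. Type I interferons, to which IFN epsilon and IFN beta both belong, are long known to slow the growth of many cell types. IFN epsilon is made constitutively in the female reproductive tract.

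ID8 cells were left untreated, which here meant the PBS vehicle, or were given one of the interferons, as recombinant mouse protein, for 3 h. The doses of IFN epsilon were 10, 100 and 1000 IU/ml, and those of IFN beta were the same. Each of these 7 groups was run on 3 dates, and the RNA of several wells was combined into 1 sample. RNA was measured on 1-colour Agilent arrays, so each value is a probe's intensity; levels below are log2 intensities relative to the array's 75th percentile and compare samples, not genes. Each untreated sample was hybridised to 2 arrays, which were averaged. The labels mark the date 3 arrays of IFN beta at 10 and 100 IU/ml as excluded, for their unusually strong interferon response, so those groups have dates 1 and 2 only, and 19 samples from 22 arrays were compared. The design text calls the dates biological replicates. That a replicate number stands for the same date in every group was inferred, not stated by the labels.

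Of 12 probed ovarian epithelial and mesothelial markers, 11 were well above background on all 6 untreated arrays, among them Krt8, Epcam, Msln and Wt1, and Pax8 was above background on 0. Of 12 leukocyte markers, 7 were above background on 0 untreated arrays, including Ptprc, Cd3d and Lyz2. The others, Cd3e, Cd68, Itgam, Csf1r and Cd14, were above it on all 6. Of 10 endothelial and fibroblast markers, 6 were above it on all 6: Kdr, Col1a1, Col1a2, Col3a1, Dcn and Pdgfra. Pecam1 was above it on 5, and Cdh5, Tek and Lum on 0. Between 50.1% and 56.3% of spots were well above background on every array but that of IFN epsilon 1000 IU/ml, date 3, which had 58.8%. The interferon-response genes Isg15, Usp18, Ifit1, Irf7 and Oas2 were used as a check. In IFN epsilon 1000 IU/ml against untreated cells they rose by 3.86 to 7.10 on the log2 scale. Over all 6 genes of the check, the median rise was 2.86, 4.21 and 4.75 with IFN epsilon at 10, 100 and 1000 IU/ml. With IFN beta it was 0.71, 2.65 and 4.53. IFN epsilon lay above IFN beta by a median of 2.16, 1.61 and 0.24 at those doses.

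Cell cycle genes moved more with the date than with interferon. In untreated cells 36 of the 37 were higher on date 3 than on date 2, with a median difference of 0.45 on the log2 scale. Over all genes tested, 55.2% were higher on date 3 and the median difference was 0.06. Against date 1, date 2 was higher for 3 of 37 (median -0.29; all genes 51.4% higher, median 0.01), and date 3 was higher for 32 of 37 (median 0.24; all genes 57%, median 0.07). The median SD over the 3 dates in untreated cells was 0.25 for the 37 genes and 0.21 for all genes.

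All 9 segregation and checkpoint genes were higher on date 3 than on date 2 in untreated cells, by 0.28 to 1.00. All 8 genes of G2 and mitotic entry were higher, by 0.12 to 1.09 with a median of 0.81. The 11 replication genes were higher by 0.13 to 0.85 and the 7 G1 genes by 0.17 to 0.61. The 2 CDK inhibitors differed by -0.04 and 0.01 between those dates. Plk1, the polo-like kinase of mitosis, was at 4.90, 4.33 and 5.34 on dates 1, 2 and 3, and Ccnb1, cyclin B1, was at 3.66, 3.38 and 4.46.

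The same order of dates was seen in treated cells. With IFN epsilon at 1000 IU/ml 36 of 37 genes were higher on date 3 than on date 2 (median 0.42; all genes 57.9%), and with IFN beta at 1000 IU/ml 36 of 37 were (median 0.48; all genes 54.6%). Date 2 lay below date 1 in all 7 groups, with 2 to 4 of the 37 genes higher on date 2. The 75th percentile of intensity also differed by date, at 643.5 to 844.3 on the date 3 arrays against 955.2 to 1221.5 on those of date 1 and 1003.9 to 1191.7 on those of date 2. Its part in the date differences was not tested. In bulk RNA such as this, fewer cycling cells and less RNA per cell cannot be told apart. The fit behind the comparisons below therefore included the date as a term, except where stated. Groups with samples on all dates were thereby compared within dates, whether with untreated cells or with each other. For the IFN beta groups that lack date 3, the estimates also rest on date differences taken from the other groups.

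**Figure D1:**
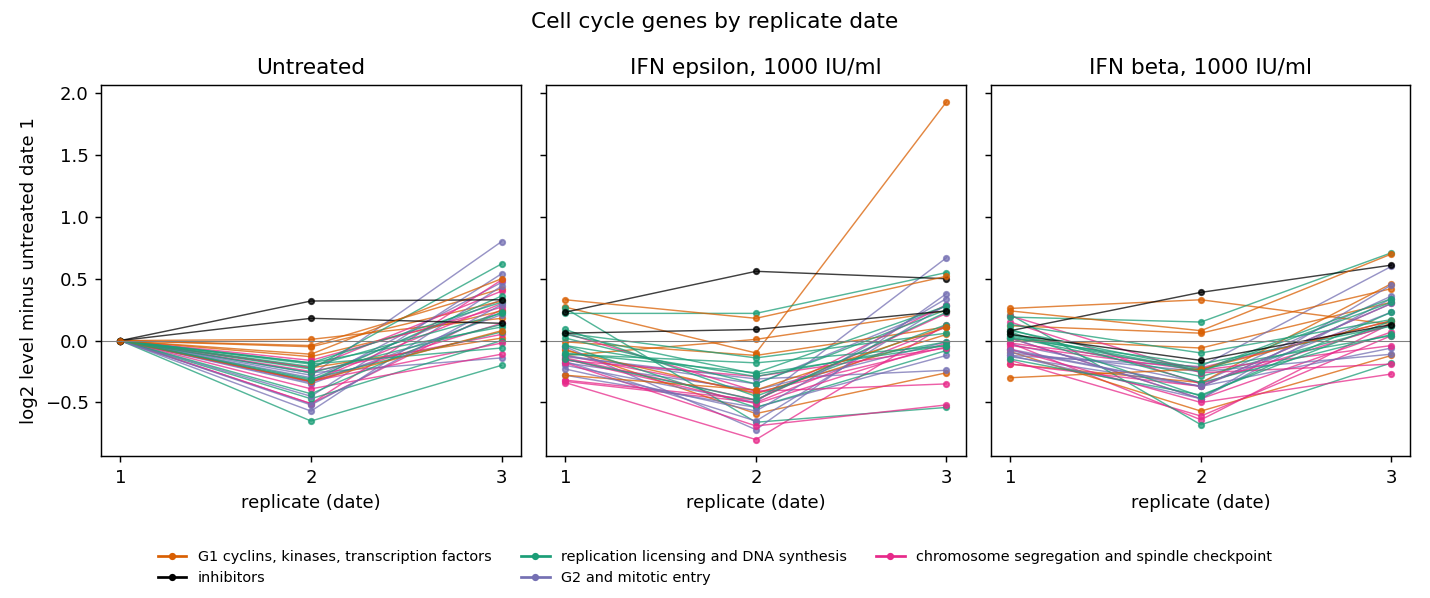
Log2 level of each of the 37 cell cycle genes minus its level in untreated cells of date 1 (vertical axis), by date (horizontal axis), in untreated cells and in cells given 1000 IU/ml of either interferon. One line is one gene, coloured by role. Most lines dip at date 2 and rise at date 3, in treated and untreated cells alike. The 2 inhibitors, in black, do not dip at date 2, except Cdkn1b under IFN beta (2.83, 2.62 and 2.91 on dates 1, 2 and 3). The orange line that climbs to the top under IFN epsilon is Ccne2, which was well above background on only 5 of 22 arrays.

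IFN epsilon at 1000 IU/ml was the treatment in which the most cell cycle genes passed the test against untreated cells. Cdc20, Birc5 and Ttk, all genes of chromosome segregation and its checkpoint, fell by 0.23 to 0.33 on the log2 scale, and Mcm6, a subunit of the replicative helicase, rose by 0.29. These 4 of 37 genes (10.8%) passed at an adjusted p under 0.05, against 8.27% of all 14300 genes, 4.61% higher and 3.66% lower. The members' median difference was -0.10 and that of all genes -0.05. At an unadjusted p under 0.05, 9 of 37 members (24.3%) and 23.7% of all genes passed, so the members' share was close to the background. All 4 calls needed the date in the fit: without it 0 of 37 were called, against 2.33% of all genes.

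Cdc20, the activator of the anaphase-promoting complex, was at 4.88, 4.37 and 5.37 in untreated cells on dates 1, 2 and 3, and at 4.54, 4.08 and 5.01 with IFN epsilon at 1000 IU/ml. Treated cells were lower on every date, although the 2 groups overlap across dates. The gene fell by 20.3% (log2 difference -0.33 ± 0.07 SE; adjusted p = 0.0104, limma), and a second probe of the gene gave -0.35 ± 0.09. The call was lost without the untreated sample of date 3 (-0.29, adjusted p = 0.0736), without the treated sample of date 1 (-0.31, adjusted p = 0.054), and without all samples of date 1 or of date 2 (adjusted p = 0.233 and 0.189).

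Birc5 (survivin), a subunit of the chromosomal passenger complex, was at 5.85, 5.63 and 6.25 in untreated cells and at 5.53, 5.37 and 6.14 with IFN epsilon at 1000 IU/ml. It was lower on all 3 dates, least on date 3. Birc5 fell by 14.5% (log2 difference -0.23 ± 0.05 SE; adjusted p = 0.0262), and a second probe gave -0.51 ± 0.18. Leaving out 1 sample or 1 date ended the call in 7 of 9 cases; it was kept only without the treated or the untreated sample of date 3, and the difference ranged from -0.29 to -0.18 and the adjusted p from 0.0277 to 0.301.

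Ttk (Mps1), the kinase that starts spindle checkpoint signalling, was at 0.41, 0.25 and 0.68 in untreated cells and at 0.26, -0.10 and 0.39 with IFN epsilon at 1000 IU/ml. It was lower on each date. Ttk fell by 16.8% (log2 difference -0.26 ± 0.07 SE; adjusted p = 0.0343), with -0.22 ± 0.09 and -0.19 ± 0.11 at its other probes. The call held in 1 of 9 cases with a sample or a date left out, that without the untreated sample of date 1 (-0.35, adjusted p = 0.00798), and the adjusted p reached 0.311.

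Mcm6 was at 5.47, 5.29 and 5.78 in untreated cells, at 5.87, 5.54 and 6.25 with IFN epsilon at 100 IU/ml and at 5.69, 5.69 and 6.02 at 1000 IU/ml. Treated cells were higher on every date at both doses. The difference was 0.37 ± 0.08 at 100 IU/ml (SE; 29.6% higher; adjusted p = 0.0333) and 0.29 ± 0.08 at 1000 IU/ml (22.2% higher; adjusted p = 0.0438), where a second probe gave 0.24 ± 0.09. No other member of the Mcm2 to Mcm7 helicase was called: at 1000 IU/ml Mcm2 differed by 0.05, Mcm3 by -0.03, Mcm4 and Mcm5 by -0.01 and Mcm7 by -0.05.

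The estimate for Mcm6 was above 0 for all 6 treatments, at 0.18 with IFN epsilon at 10 IU/ml and at 0.37, 0.25 and 0.31 with IFN beta at 10, 100 and 1000 IU/ml; these 6 values share their untreated samples. None of the IFN beta values was called (adjusted p = 1, 1 and 0.0536). The call at 100 IU/ml of IFN epsilon was kept only without the treated sample of date 2 (0.45, adjusted p = 0.0158), and that at 1000 IU/ml was lost in all 9 cases with a sample or a date left out (0.23 to 0.33, adjusted p from 0.0594 to 0.253). When arrays were scaled to their median, which moved all genes to a median of -0.43 at 1000 IU/ml, the difference of Mcm6 was -0.09, still above that median.

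The arrays lay on 3 slides, and slides held unequal sets of dates. With the slide as a further term, Cdc20, Birc5, Ttk and Mcm6 differed by -0.33, -0.23, -0.26 and 0.29 with IFN epsilon at 1000 IU/ml, and 9 of 37 genes (24.3%) were called, against 16.3% of all genes in the same fit: these 4 with Bub1b, Cdk1, Cdk2, Myc and Rrm2. The date 3 array of that group shared a slide with an untreated array of its date, and there the differences were -0.31 for Cdc20, -0.16 for Birc5, -0.27 for Ttk and 0.36 for Mcm6. Without that array, the one with the most spots above background, Birc5 and Cdc20 stayed called and Ttk (-0.29, adjusted p = 0.0539) and Mcm6 (0.33, adjusted p = 0.0594) did not.

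Other settings ended single calls with IFN epsilon at 1000 IU/ml. Tested on the authors' deposited table, Birc5 (-0.23, adjusted p = 0.0581) and Ttk (-0.26, adjusted p = 0.0672) were not called, and with normexp background correction Ttk was not (-0.25, adjusted p = 0.0586). When the 2 arrays marked as excluded were put back, Cdc20 was not called (-0.33, adjusted p = 0.0658), and with quantile normalization Mcm6 was not (0.28, adjusted p = 0.105). With no filter on dim probes, where 3.07% of all genes were called, Cdc20 was the only one of the 4 still called (adjusted p = 0.0343). In a fit to the groups compared alone and after scaling to the median 0 of the 4 were called (all genes 2.74% and 2.45%).

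**Figure D2:**
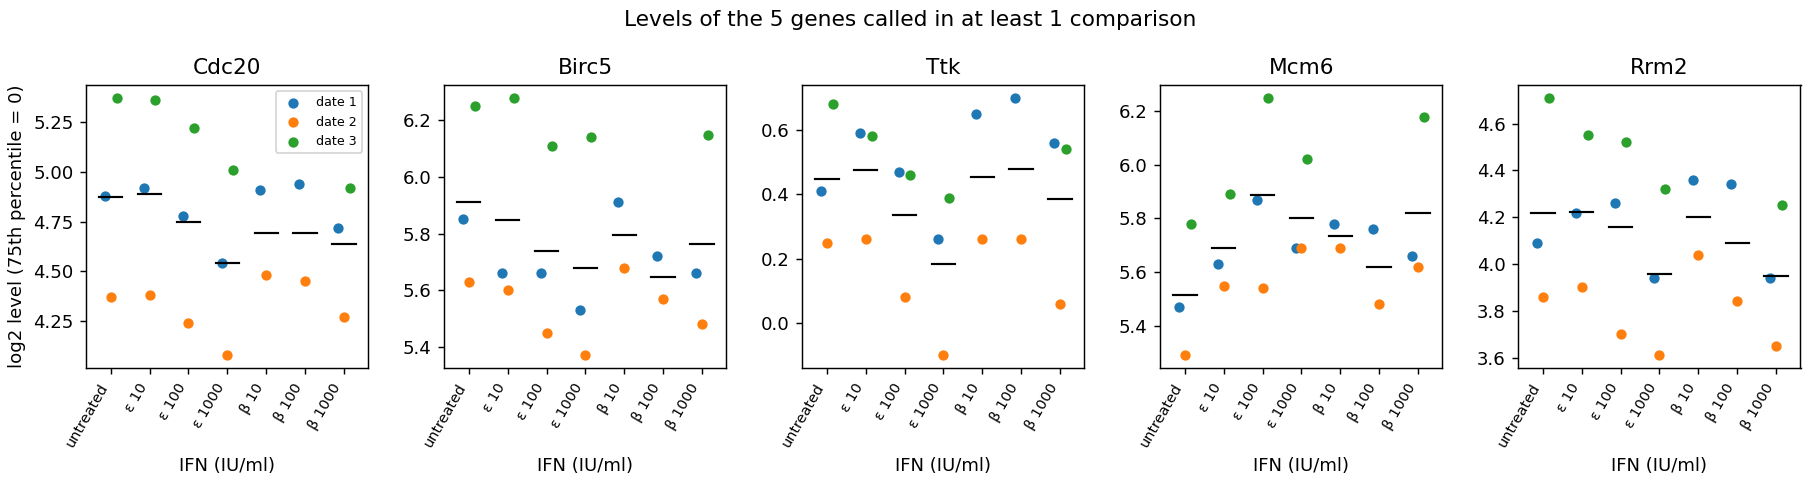
Log2 level (array's 75th percentile = 0) of the 5 cell cycle genes called in at least 1 comparison, by treatment (horizontal axis, interferon and IU/ml); points are samples coloured by date and bars are group means. Cdc20, Birc5 and Ttk are lower with IFN epsilon at 1000 IU/ml than in untreated cells on each date, Mcm6 is higher, and Rrm2 is lower at 1000 IU/ml of both interferons; the bars of IFN beta at 10 and 100 IU/ml rest on dates 1 and 2 only, so they lack the date with the highest levels of most of these genes.

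The sequences upstream of these 4 genes and of Rrm2, called between doses of IFN beta below, were searched for motifs for which cell cycle promoters are known. The 200 bases before the start site are printed 5′ to 3′ on the gene's strand, from RefSeq, build GRCm38.p6. Capitals mark matches, on either strand, to the cell cycle homology region TTTGAA, the CCAAT box that NF-Y binds (ATTGG on the other strand), E2F sites written TTTCCCGC or TTTGGCGC, and the interferon-stimulated response element, searched as 2 copies of GAAA with 2 bases between them. No printed matches overlap. The windows are chr4:118437344-118437543 (minus strand) for Cdc20, chr11:117849037-117849236 (plus) for Birc5, chr9:83834489-83834688 (plus) for Ttk, chr1:128359706-128359905 (minus) for Mcm6 and chr12:24708054-24708253 (plus) for Rrm2.
Cdc20: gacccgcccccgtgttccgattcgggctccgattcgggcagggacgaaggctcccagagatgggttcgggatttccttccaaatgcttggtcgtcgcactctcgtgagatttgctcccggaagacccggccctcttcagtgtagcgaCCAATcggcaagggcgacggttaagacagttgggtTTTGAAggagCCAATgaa
Birc5: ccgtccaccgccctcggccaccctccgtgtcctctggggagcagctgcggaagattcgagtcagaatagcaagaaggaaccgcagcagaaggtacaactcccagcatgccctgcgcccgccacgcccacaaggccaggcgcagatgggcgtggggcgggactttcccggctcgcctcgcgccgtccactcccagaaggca
Ttk: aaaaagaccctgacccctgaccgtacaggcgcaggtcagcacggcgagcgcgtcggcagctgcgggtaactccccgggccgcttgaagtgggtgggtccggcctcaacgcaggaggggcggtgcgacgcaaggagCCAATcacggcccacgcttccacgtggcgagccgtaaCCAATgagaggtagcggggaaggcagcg
Mcm6: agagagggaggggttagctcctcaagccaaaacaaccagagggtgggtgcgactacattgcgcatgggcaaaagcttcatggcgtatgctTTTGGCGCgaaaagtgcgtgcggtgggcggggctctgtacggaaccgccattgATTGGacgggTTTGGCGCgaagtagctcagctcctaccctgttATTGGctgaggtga
Rrm2: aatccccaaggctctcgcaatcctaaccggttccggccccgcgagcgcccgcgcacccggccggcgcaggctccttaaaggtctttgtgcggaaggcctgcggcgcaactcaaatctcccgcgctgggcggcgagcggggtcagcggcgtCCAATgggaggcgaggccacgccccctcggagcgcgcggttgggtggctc

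Cdc20 held 1 TTTGAA and 2 CCAAT boxes, Ttk 2 CCAAT boxes and Rrm2 1. Mcm6 held 2 CCAAT boxes and 2 TTTGGCGC sites, and Birc5 held none of these letters in this window. RefSeq promoters matched 29 of the 37 genes, with 31 start sites. Of those 31 windows 67.7% held CCAAT, against 29.3% of all 32851 windows of this length; 19.4% held TTTGAA, against 12.5%; and 16.1% held either E2F site, against 1.11%. The response element was found in 0 of 31 and in 2.27% of all windows. A match is a match of letters, not a site shown to be bound.

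The segregation and checkpoint genes, the 3 called ones included, all lay below 0 with IFN epsilon at 1000 IU/ml (9 of 9, median -0.15, range -0.33 to -0.11), as did the genes of G2 and mitotic entry (8 of 8, median -0.14, range -0.27 to -0.08). Of all genes, 61.3% lay below 0. No gene of G2 and mitotic entry was called. Mki67, the proliferation antigen, stood at 4.06, 3.55 and 4.31 in untreated cells and at 3.73, 3.56 and 4.17 with IFN epsilon, a difference of -0.15 ± 0.08 (adjusted p = 0.267). Top2a, topoisomerase II alpha, differed by -0.14 ± 0.08 (adjusted p = 0.303).

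Cdk1, the kinase of mitotic entry, was at 3.31, 3.01 and 3.64 in untreated cells and at 3.13, 2.91 and 3.30 with IFN epsilon at 1000 IU/ml, lower on each date. The difference, -0.21 ± 0.08, did not pass (adjusted p = 0.142). Its partners Ccnb1 (-0.18 ± 0.08, adjusted p = 0.181) and Ccna2, cyclin A2 (-0.10 ± 0.09, adjusted p = 0.543), did not pass either, nor did Plk1 (-0.09 ± 0.06, adjusted p = 0.404). In the authors' deposited table, tested the same way, Ccnb1 was called (-0.28, adjusted p = 0.0469).

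The 11 replication genes, Mcm6 and Rrm2 included, had a median of -0.03 with IFN epsilon at 1000 IU/ml. Cdc6 and Cdt1, which load the helicase, differed by -0.03 ± 0.14 and -0.06 ± 0.11, and Pcna, the polymerase clamp, by -0.08 ± 0.06. Rrm2, the small subunit of ribonucleotide reductase, was at 4.09, 3.86 and 4.71 in untreated cells, at 3.94, 3.61 and 4.32 with IFN epsilon and at 3.94, 3.65 and 4.25 with IFN beta at 1000 IU/ml. It was lower on all 3 dates with both, with differences of -0.26 ± 0.08 (adjusted p = 0.0545) and -0.27 ± 0.08 (adjusted p = 0.0749), and neither passed.

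In the G1 group no gene was called. Ccnd1, cyclin D1, the G1 cyclin that responds to growth signals, was at 3.54, 3.49 and 3.86 in untreated cells and differed by -0.10 ± 0.07 with IFN epsilon (adjusted p = 0.405) and by 0.11 ± 0.07 with IFN beta at 1000 IU/ml (adjusted p = 0.445). Cdk2, the kinase of the G1 to S step, was at 0.23, 0.10 and 0.47 in untreated cells and at 0.16, -0.36 and -0.03 with IFN epsilon. Its difference of -0.34 ± 0.10 just missed the threshold (adjusted p = 0.0509), and it was -0.29 ± 0.10 with IFN beta (adjusted p = 0.13). Myc, the growth-promoting transcription factor, differed by 0.21 ± 0.10 with each interferon at 1000 IU/ml (adjusted p = 0.22 and 0.303).

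A pair of G1 genes had wide intervals. Ccne2, cyclin E2, was well above background on 5 of 22 arrays. E2f1 was above it on all 22, but stood at -0.92 on date 3 with IFN epsilon at 10 IU/ml against 1.38 and 1.28 on its other dates. The fit shares its spread over all groups, so the value of -0.92 enters every interval of E2f1. The intervals of Ccne2 and E2f1 at 1000 IU/ml of IFN epsilon were -0.62 to 1.89 and -1.11 to 0.90. Ccne1, cyclin E1, differed by -0.08 ± 0.13 with IFN epsilon and by 0.05 ± 0.13 with IFN beta.

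The 2 inhibitors, whose rise would hold CDKs back, were not called. Cdkn1a (p21) was at 1.77, 2.09 and 2.10 in untreated cells, at 2.00, 2.33 and 2.27 with IFN epsilon and at 1.85, 2.16 and 2.38 with IFN beta at 1000 IU/ml. It was higher on each date with both, by 0.21 ± 0.11 (adjusted p = 0.269) and 0.15 ± 0.11 (adjusted p = 0.558), with intervals of -0.03 to 0.45 and -0.10 to 0.39. Cdkn1b (p27) differed by 0.02 ± 0.17 and -0.10 ± 0.17.

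**Figure D3:**
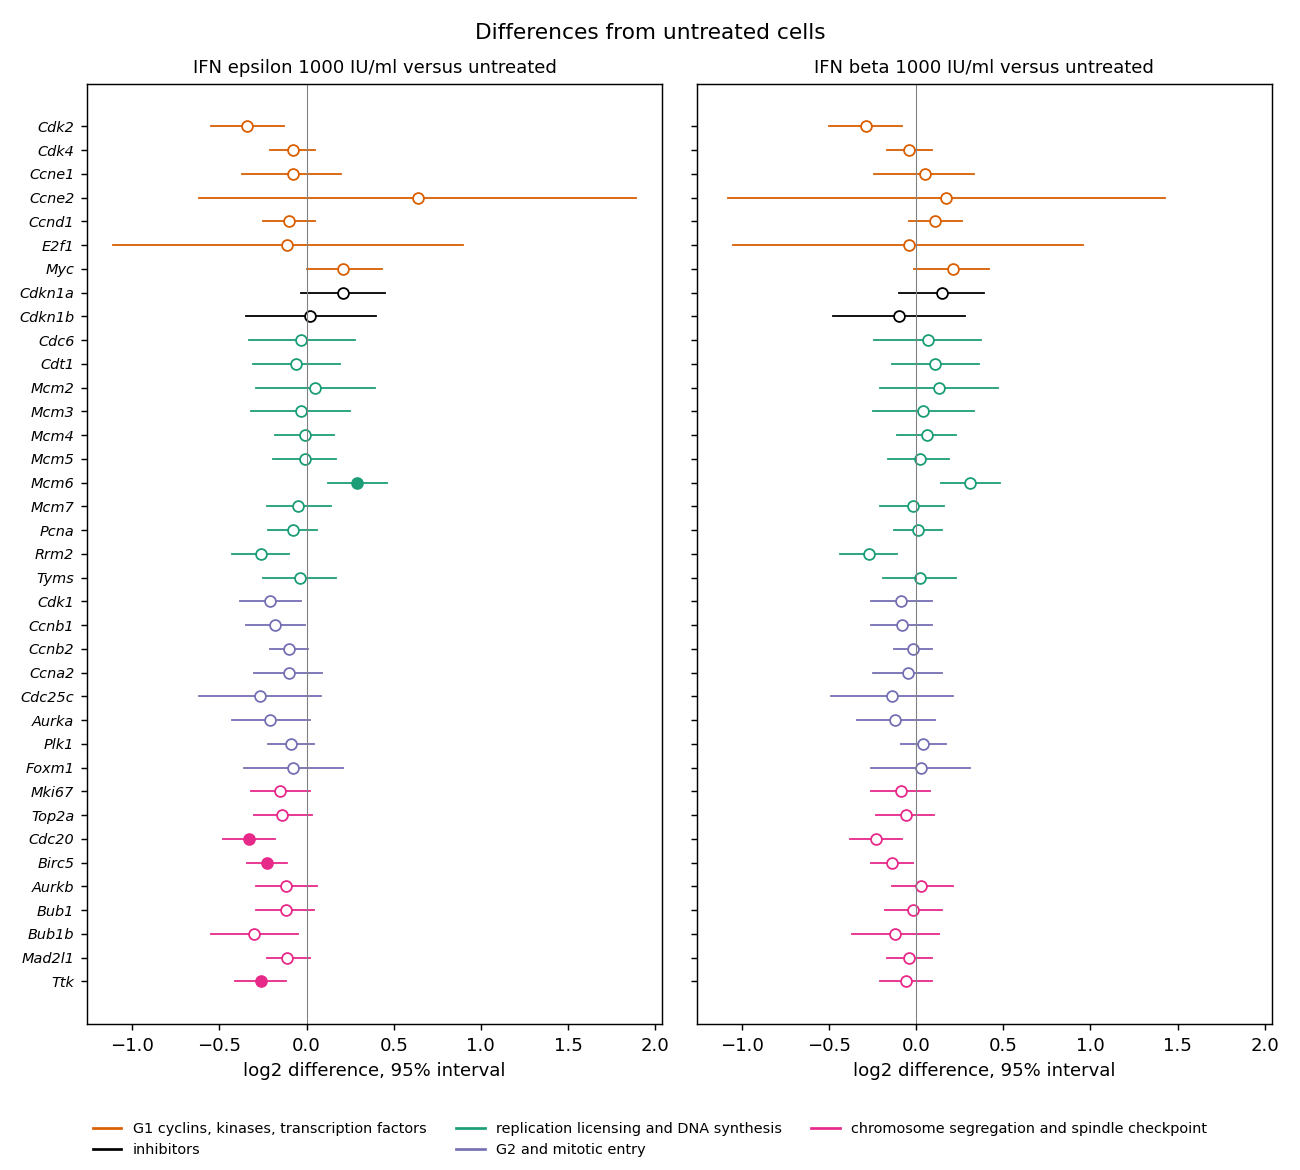
Log2 difference from untreated cells of the same dates, with its 95% interval, for the 37 genes at 1000 IU/ml of IFN epsilon and of IFN beta; filled points are called at adjusted p under 0.05, colours are roles. The filled points are Cdc20, Birc5, Ttk and Mcm6 under IFN epsilon and none under IFN beta; all mitotic genes lie left of 0 under IFN epsilon, and Ccne2 and E2f1 have the widest intervals.

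No cell cycle gene was called with IFN beta at any dose. At 1000 IU/ml 0 of 37 passed, against 3.48% of all genes, with a median of -0.02 (all genes -0.04); 5 members (13.5%) had an unadjusted p under 0.05, as had 17.7% of all genes. At 10 and 100 IU/ml 0 passed (all genes 0% and 0.287%), and 2 and 1 had an unadjusted p under 0.05 (all genes 3.12% and 3.9%). Cdc20 stood at 4.72, 4.27 and 4.92 at 1000 IU/ml, lower than untreated cells on every date, a difference of -0.23 ± 0.07 that did not pass (adjusted p = 0.0899). Birc5 differed by -0.14 ± 0.05 (adjusted p = 0.204) and Ttk by -0.06 ± 0.07 (adjusted p = 0.711). Tested on the authors' deposited table, Cdk2 and Mcm6 were called at 1000 IU/ml, the only 2 members (5.41%, against 3.61% of all genes).

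With IFN epsilon at 10 IU/ml the test called 0 of 37 (all genes 0.503%) and at 100 IU/ml 1 of 37, Mcm6 (all genes 1.64%). At an unadjusted p under 0.05 there were 1 and 2 (all genes 3% and 12.4%). The members' medians were 0.03 and -0.06, and those of all genes 0 and -0.06. The estimates at 1000 IU/ml were bounded: for 35 of 37 genes the 95% interval stayed within a log2 difference of -1 to 1 with either interferon, as for 86.8% and 87.3% of all genes. The others were Ccne2 and E2f1.

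The interferons were also set against each other at equal doses, which at 10 and 100 IU/ml did not raise the interferon check equally. No member was called at 10, 100 or 1000 IU/ml (0.119%, 0.378% and 0% of all genes), and 2, 4 and 3 had an unadjusted p under 0.05 (all genes 3.18%, 7.96% and 5.77%). At 1000 IU/ml the median of IFN epsilon minus IFN beta was -0.08 (all genes -0.01). Cdc20 differed by -0.10 (95% interval -0.24 to 0.05) and Birc5 by -0.09 (-0.20 to 0.03). Ttk differed by -0.20 (-0.35 to -0.05, adjusted p = 0.681) and Ccnd1 by -0.21 (-0.36 to -0.06, adjusted p = 0.633). So the calls under IFN epsilon and their absence under IFN beta are no tested difference between the 2 interferons. At 100 IU/ml 1 sample mattered: on date 1 the IFN beta sample had Cdkn1b at 1.92 and Mcm2 at 2.44, against 2.78 and 3.16 in untreated cells, and leaving out the date 2 sample left that 1 sample in the group. In that fit, IFN epsilon minus IFN beta was 0.82 for Cdkn1b and 0.83 for Mcm2. IFN beta differed from untreated cells by -0.88 for Cdkn1b and -0.67 for Mcm2. That fit assumes that the 1 sample varies like the other groups, so no calls are given for it.

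Between 1000 and 10 IU/ml of IFN epsilon, Cdc20 and Ttk fell. These were 2 of 37 members called (5.41%; all genes 4.64%, 1.2% lower). The members' median was -0.15 (all genes -0.05), and 16 members were lower at an unadjusted p under 0.05 and 1 higher, 45.9% together, against 21.3% of all genes, 12.7% lower. Cdc20 was at 4.92, 4.38 and 5.36 at 10 IU/ml and differed by -0.34 ± 0.07 (adjusted p = 0.0119). Ttk was at 0.59, 0.26 and 0.58 and differed by -0.29 ± 0.07 (adjusted p = 0.0297). The Cdc20 call was lost without the sample of date 3 at 10 IU/ml (-0.32, adjusted p = 0.072), that of date 1 at 1000 IU/ml (-0.32, adjusted p = 0.0642), date 1 (-0.32, adjusted p = 0.281) or date 2 (-0.37, adjusted p = 0.167). The Ttk call was lost in all 9 such cases (-0.35 to -0.26).

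Between 1000 and 10 IU/ml of IFN beta, Rrm2 fell, as 1 of 37 (2.7%; all genes 1.77%, 0.154% lower). At an unadjusted p under 0.05 there were 7 (18.9%; all genes 14.6%). Rrm2 was at 4.36 and 4.04 on dates 1 and 2 at 10 IU/ml, and at 3.94, 3.65 and 4.25 at 1000 IU/ml. The difference on shared dates was -0.42 and -0.39, and in the fit Rrm2 fell by 26.2% (log2 difference -0.44 ± 0.09; adjusted p = 0.0227). It was kept in 2 of 8 cases with a sample or date left out, those without the date 1 or the date 2 sample at 1000 IU/ml, and the adjusted p reached 0.506. Without the date in the fit the difference was -0.25 and no longer called; the group at 10 IU/ml lacks date 3.

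Other genes of the cycle were counted the same way with IFN epsilon at 1000 IU/ml, where 8.27% of all genes were called. Of 61 other mitosis and spindle genes 6 were called (9.84%), 5 lower and 1 higher (median -0.12). Pttg1, securin, which holds back separase, rose by 0.77 ± 0.11 (adjusted p = 0.000813), and by 0.66 ± 0.11 with IFN beta (adjusted p = 0.00377); the CDK-activating phosphatase gene Cdc25b fell by 0.53 on the log2 scale and Troap fell by 0.28. With IFN beta 2 were called (3.28%, against 3.48% of all genes), Pttg1 and Mastl (0.34), both higher. Of 45 other replication genes 3 were called (6.67%): Timeless rose by 0.33, and Tipin and Gmnn, the Cdt1 inhibitor geminin, fell by 0.24 and fell by 0.22. Of 40 other G1 regulators 2 were called (5%), E2f5 (-0.38) and E2f6 (-0.33), and of 30 Myc partner and ribosome synthesis genes 1 (3.33%), Gnl3 (-0.37). With IFN beta 0 were called in each of those 3 lists.

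Of 35 p53 and DNA damage response genes 9 were called with IFN epsilon at 1000 IU/ml (25.7%, against 8.27% of all genes), 5 higher and 4 lower. Fas, a death receptor, rose by 1.09 ± 0.21 (adjusted p = 0.00801), Gadd45g rose by 0.82 and Zmat3 fell by 0.57 on the log2 scale; the median was 0.02. With IFN beta 2 were called (5.71%, against 3.48% of all genes), Fas (0.94) and Gadd45g (0.62). By contrast, 19 of 20 tested interferon-induced genes with reported growth-restraining roles rose with IFN epsilon (median 2.81), led by Slfn8 (5.62), Gbp2 (5.43) and Parp14 (5.15), and 18 of 20 with IFN beta (median 2.42). The genes of that list were picked because interferon induces them, so its direction is no independent evidence.

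**Figure D4:**
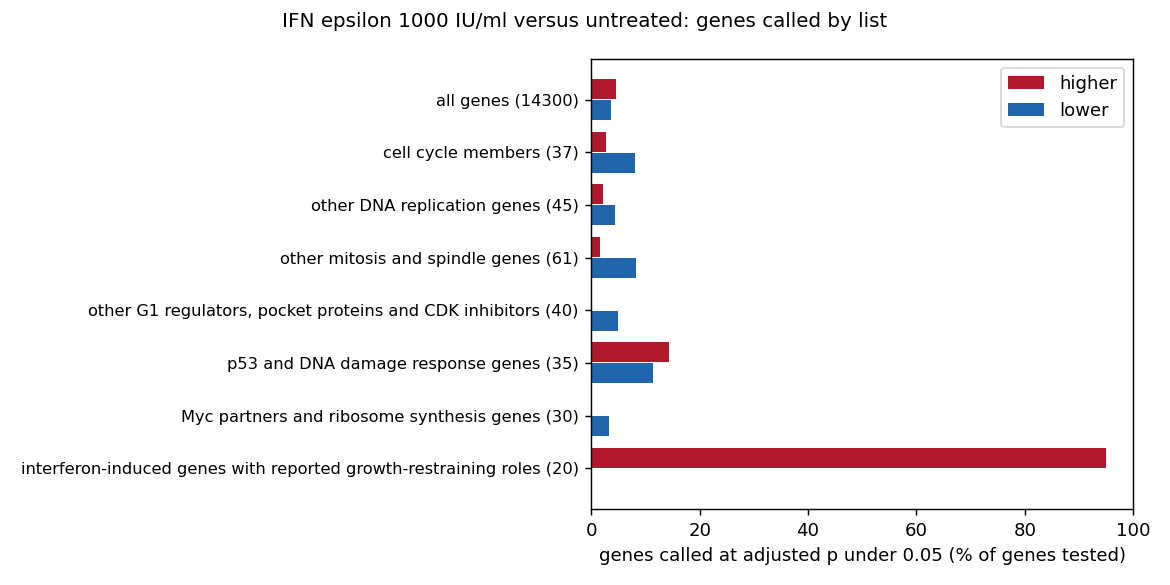
Share of the tested genes of each list called higher or lower with IFN epsilon at 1000 IU/ml against untreated cells (horizontal axis, percent; number tested in brackets), with all 14300 genes at the top. Cell cycle, replication, mitosis, G1 and Myc lists have 10.8% or less of their genes called, against 8.27% of all genes. The p53 and DNA damage list has 25.7%. The growth-restraining list has 95%, but its genes were picked because interferon induces them.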

How the data were processed

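Intensities came from Agilent Feature Extraction 11.0.1.1 scanner files; R 3.6.1 and limma 3.42.0 are also named in the submitters' processing notes. The processed-signal intensity was deposited per spot, and the authors' deposited table holds log2 values (array medians 5.52 to 5.54; correlation with the scanner values 0.989 to 0.995) whose exact scaling is not given in the sources used here. Per array, log2 intensity minus its 75th percentile was used, without control and outlier spots; arrays have 62976 spots and their number limits the precision. Of 56605 probes 32994 were named through RefSeq accessions (GRCm38.p6 table, names only), the brightest probe standing for a gene. Genes whose probe the scanner flagged as measured above background in fewer than 2 samples of every group were dropped.

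One limma fit (3.58.1, R 4.3.3) held 7 groups and the date, with Benjamini-Hochberg adjustment over 14300 genes; a gene was called at an adjusted p under 0.05. The sample labels give replicate numbers, not dates. Reading an equal number as a shared date in every group is an inference, and the comparisons within dates rest on it. Deviations from group means correlated with a median of 0.48 (range -0.06 to 0.78) between samples of the same date and -0.21 between dates. The p-values rest on the spread between samples that remains after group and date are fitted, pooled over the 7 groups. The code was tested on simulated data.

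Members and lists were chosen with earlier results of these data known. Values were given for every called gene and a fixed panel, and for the 3 largest called changes of each other list. Alternatives covered scaling, background, filter, probe choice, the 2 marked arrays, slide, date and samples. The scanner files used carry no mean signal, so normexp (offset 50) took the median signal. Promoters were read from RefSeq (GRCm38.p6). One gene of the interferon check is not reported here.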

Additional observations from a re-analysis of the deposited data

Results flagged for a closer look

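Between 1000 and 10 IU/ml of IFN epsilon the test of the difference between doses passed for Cdc20 (-0.34) and Ttk (-0.29). Between 1000 and 10 IU/ml of IFN beta it passed for Rrm2 (-0.44). No member passed the test between IFN epsilon and IFN beta at an equal dose. Groups had 3 samples or fewer, so no check for a single far sample was made.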

How the results depend on the processing

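Of 37 members, 4 were called with IFN epsilon at 1000 IU/ml and 1 at 100 IU/ml. Between 1000 and 10 IU/ml 2 were called for IFN epsilon and 1 for IFN beta. Of all genes, 8.27%, 1.64%, 4.64% and 1.77% were called in these 4 comparisons. Without the replicate block (the date) each of these 4 counts was 0, against 2.33%, 1.06%, 1.43% and 1.14% of all genes. The member medians there were -0.02 for IFN beta at 10 IU/ml and -0.08 at 100 IU/ml. They were 0.06 for IFN epsilon against IFN beta at 100 IU/ml and -0.02 between doses of IFN beta. With median scaling the 4 counts were 0 as well, against 2.45%, 1.31%, 1.54% and 1.43% of all genes. Mcm6 with IFN epsilon at 1000 IU/ml was reversed there (-0.09). Medians were -0.48 for IFN epsilon and -0.17 for IFN beta at 1000 IU/ml, where all genes lay at -0.43 and -0.19. They were 0.02 for IFN beta at 10 IU/ml and -0.31 between the interferons at 1000 IU/ml. Between doses they were -0.56 for IFN epsilon and -0.18 for IFN beta. With quantile normalization, with normexp and with the authors' deposited table, 0 were called with IFN epsilon at 100 IU/ml (all genes 1.66%, 1.76% and 1.72%). Between doses of IFN beta 0 were called too (all genes 1.73%, 2.2% and 2.08%). With the last 2 settings, 2 were called with IFN beta at 1000 IU/ml (all genes 3.94% and 3.61%). The authors' deposited table gave 1 between doses of IFN epsilon (all genes 4.46%). Under those 3 settings the median was 0.01 for IFN beta at 10 IU/ml and -0.05 between the interferons at 1000 IU/ml. It was -0.06 (quantile) and -0.08 (normexp, deposited table) for IFN beta at 1000 IU/ml, -0.04 and -0.06 between its doses, and -0.13 for IFN epsilon at 1000 IU/ml under normexp and in the deposited table. With no filter on dim probes the 4 counts were 1 (1000 IU/ml), 0 (100 IU/ml), 1 and 0. Of all genes 3.07%, 0.794%, 1.92% and 0.755% were called there. With only probes well above background in every sample IFN beta at 1000 IU/ml called 1 of 36, against 4% of all genes. With all 24 arrays Cdc20 was not called with IFN epsilon at 1000 IU/ml (adjusted p = 0.0658). There 0 were called with IFN epsilon at 100 IU/ml (all genes 0.286%) and between doses of IFN epsilon (0.119%) and of IFN beta (0%). Medians were -0.03 between the interferons at 100 IU/ml and -0.06 between doses of IFN beta. In the fit of single arrays with the slide as a further term, 9 were called with IFN epsilon and 2 with IFN beta at 1000 IU/ml. Of all genes 16.3% and 6.29% were called there, and the median between doses of IFN beta was -0.05. Fits to only the groups compared called 0 in all 4 (all genes 2.74%, 0.937%, 0.923% and 0%), with a median of -0.11 between doses of IFN beta. The cause of these changes was not tested.

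Leaving out 1 sample or 1 date gave 0 to 4 members with IFN epsilon at 1000 IU/ml and 0 to 1 at 100 IU/ml. It gave 0 to 1 with IFN beta at 1000 IU/ml, 0 to 2 between doses of IFN epsilon and 0 to 1 between those of IFN beta. With 10 IU/ml of either interferon, and between the interferons at 10 and 1000 IU/ml, it gave 0 to 0, as did the full fit. The share of all genes called in these refits is not given here, so the counts are no result particular to the members. For IFN beta at 100 IU/ml some refits leave 1 sample in the group, so no counts are given there. Member medians then ran from 0.01 to 0.07, -0.10 to 0.00 and -0.12 to -0.09 for IFN epsilon at 10, 100 and 1000 IU/ml, from 0.03 to 0.11, 0.02 to 0.06 and -0.04 to 0.01 for IFN beta, from -0.08 to 0.01, -0.12 to -0.05 and -0.10 to -0.06 between them, and from -0.19 to -0.12 and -0.13 to -0.06 between doses. Dim signal limits Ccne2, which was above background on 5 of 22 arrays.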

Other observations

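The date 3 arrays of IFN beta that the labels mark as excluded were left out of every comparison. Genes higher on these arrays were counted among the 37 only, so the counts below have no share of all genes beside them. Against untreated cells of date 3, the array labelled 100 IU/ml had 11 of 37 cell cycle genes higher, with a median difference of -0.09 and a range of -0.50 to 0.45. That labelled 10 IU/ml had 15 of 37 higher, with a median of -0.06 and a range of -1.01 to 0.47. On that array the interferon-response genes Isg15, Usp18 and Ifit1 lay 3.34, 5.29 and 5.96 above untreated cells of date 3 on the log2 scale, whereas the fit to dates 1 and 2 gave 0.55, 1.03 and 1.06 at 10 IU/ml. On the array labelled 100 IU/ml Usp18 and Ifit1 lay 5.56 and 6.39 above, against 3.41 and 3.82 in the fit. The 2 arrays of 1 untreated sample differed over the 37 genes by a median of 0.11, 0.05 and 0.08 on dates 1, 2 and 3; the largest gap was 0.86, for Mcm2 on date 3.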
